A study of Homo sapiens with 3 samples.

Results

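A set of 10 genes of interleukin-1 (IL-1) and NF-kB inflammatory signalling was followed across the 3 mRNA sequencing libraries of the series. The genes were chosen by symbol (IL1A, IL1B, IRAK2, CXCL1, CXCL2, CXCL8, IL6, BIRC3, NFKBIA and TNFAIP3), and all 10 were found among the 46427 genes of the deposited table. The libraries came from MG-OKS cells, a human osteosarcoma line made to resemble cancer stem cells and given as mesenchymal. One library was made from MG-OKS cells given an siRNA against SPRR1A, a gene of the epidermal cornified envelope, one from MG-OKS cells given a scrambled siRNA, and one from MG-OKS cells that were not transfected and whose genotype is given as WT. Both siRNAs were delivered with a lipid reagent and the medium was changed after 24 h. Whether the untransfected cells saw the lipid, whether the line is 1 clone, and how it was made are not given in the sources used here.

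With 1 library per group there was no replicate check, so no p-value was computed and every difference is between libraries, not between conditions. Counts totalled 34453554 with SPRR1A siRNA, 36533542 with scrambled siRNA and 40050593 without transfection. SPRR1A itself had 0 counts in all 3 libraries, which left the knockdown label unchecked. Of the 8 mesenchymal and osteoblast markers, none was at 0 in any library, and their summed level was 1619 TPM in the SPRR1A siRNA, 3857 TPM in the scrambled siRNA and 3994 TPM in the untransfected library. VIM, the vimentin gene, made up 1436, 3523 and 3510 TPM of these sums in that order of libraries. The 7 keratinocyte and epithelial markers summed to 3700, 2653 and 6551 TPM, nearly all of it from the keratin genes KRT14 (1934, 1439 and 3739 TPM) and KRT6A (1761, 1210 and 2803 TPM). The other 5, KRT5, DSP, EPCAM, TP63 and CDH1, each had at most 5.51 TPM in any library. Leukocyte markers, which matter for cytokine genes, summed to 85.1, 100.8 and 135.2 TPM over 9 genes in that order, of which CD68, a lysosomal protein gene also used by other cells, made up 83.6, 99.9 and 134.7 TPM. The T and B cell genes CD3E and MS4A1 were at 0 in every library, and PTPRC, the pan-leukocyte antigen CD45, had 0, 5 and 5 counts in the SPRR1A siRNA, scrambled siRNA and untransfected library. The monocyte gene CD14 went the other way, with 31, 6 and 10 counts in that order, and was 5.50-fold higher with SPRR1A siRNA than with scrambled siRNA (95% counting interval 2.26 to 16.1). The myeloid genes ITGAM (12, 27 and 14 counts) and CSF1R (8, 16 and 0 counts) were detected but, like CD14, stayed below 1 CPM. The part of other cell types in the results below was not tested. The endothelial list summed to 8.42, 9.77 and 14.0 TPM over 5 genes in that order, with CDH5 at 0 throughout. In bulk RNA, fewer cells expressing a gene and less RNA per cell cannot be told apart.

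IL-1 alpha and IL-1 beta bind a receptor made of IL1R1 and the accessory chain IL1RAP, which recruits the adaptor MYD88 and kinases of the IRAK family. The signal passes through TRAF6 and the kinase TAK1 to the IKK complex, which marks the inhibitor IkB-alpha (NFKBIA) for destruction and frees NF-kB to enter the nucleus. NF-kB then switches on chemokines that attract neutrophils (CXCL1, CXCL2, CXCL8), the cytokine IL-6, IL-1 itself, and its own brakes, among them NFKBIA and the ubiquitin-editing enzyme A20 (TNFAIP3). Osteosarcoma and fibroblast-like cells are known to answer IL-1 strongly with CXCL8 and IL6.

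The promoters of most of these genes hold sequence that matches the kappa B site, the DNA element NF-kB is known to bind, shown here for the 7 of the 10 genes that held a match. The windows come from the RefSeq promoter table (GRCh38.p14). Each covers 250 bases before and 50 bases after an annotated start, and all 10 genes were matched. IL1A had more than 1 window. The TNFAIP3 window (chr6:137867009-137867308) lies inside the span of the gene, which begins at 137866349. Capitals mark the printed match to the kappa B consensus or to the 9-base sequence GGAATTTCC on either strand, overlapping matches being joined.
CXCL1 (chr4:73869304-73869333, plus strand): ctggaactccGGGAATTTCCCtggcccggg
CXCL2 (chr4:74099254-74099283, minus strand): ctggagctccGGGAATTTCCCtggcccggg
CXCL8 (chr4:73740468-73740496, plus strand): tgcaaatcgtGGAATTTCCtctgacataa
NFKBIA (chr14:35404811-35404840, minus strand): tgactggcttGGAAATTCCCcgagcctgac
IL6 (chr7:22727117-22727146, plus strand): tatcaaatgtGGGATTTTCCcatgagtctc
TNFAIP3 (chr6:137867194-137867223, plus strand): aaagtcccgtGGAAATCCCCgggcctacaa
BIRC3 (chr11:102317275-102317304, plus strand): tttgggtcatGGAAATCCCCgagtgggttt
The kappa B consensus was found in 6 of the 10 genes, and 11.3% of all 35116 promoter windows of this length held it. The sequence GGAATTTCC was found in CXCL1, CXCL2, CXCL8 and NFKBIA, against 0.461% of all windows. CXCL8 held only this sequence and no match to the consensus. The 10 genes were chosen as genes of IL-1 and NF-kB signalling, so these shares describe them and test nothing. The CXCL1 and CXCL2 windows, from paralogues on opposite strands of chromosome 4, differed at 1 of 30 bases. In CXCL1, CXCL2, CXCL8, NFKBIA and IL6 the match began between 73 and 91 bases before the start, and in BIRC3 a pair of matches began 199 and 135 bases before it. TNFAIP3 held a second match just upstream of the one printed, from 67 to 58 bases before the start. Part of it lies in the lower-case bases of the printed line. No match was found in the windows of IL1A, IL1B and IRAK2, which says only that these letters are not in those windows.

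The 3' UTRs were read from GENCODE release 29 (GRCh38), taking for each gene the basic coding transcript with the longest 3' UTR. All 10 genes held at least 3 copies of ATTTA, the pentamer of AU-rich elements that mark many cytokine mRNAs for rapid decay, whereas 46.6% of the 12089 kept genes with a 3' UTR did. The density was 14.0 copies per kilobase in IL6, 13.9 in CXCL2, 9.84 in IL1B and 7.19 in CXCL8, and it was lowest in IRAK2 at 1.98 and TNFAIP3 at 1.27, against a median of 1.65 over the kept genes. The 7-base sequence GTCACCC, singled out in an earlier analysis of these same libraries and so no independent evidence on them, was present in the 3' UTR of 1 of the 10 genes, IRAK2, and of 12.3% of the kept genes. These are matches of letters, and neither binding nor decay was measured.

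**Figure D1:**
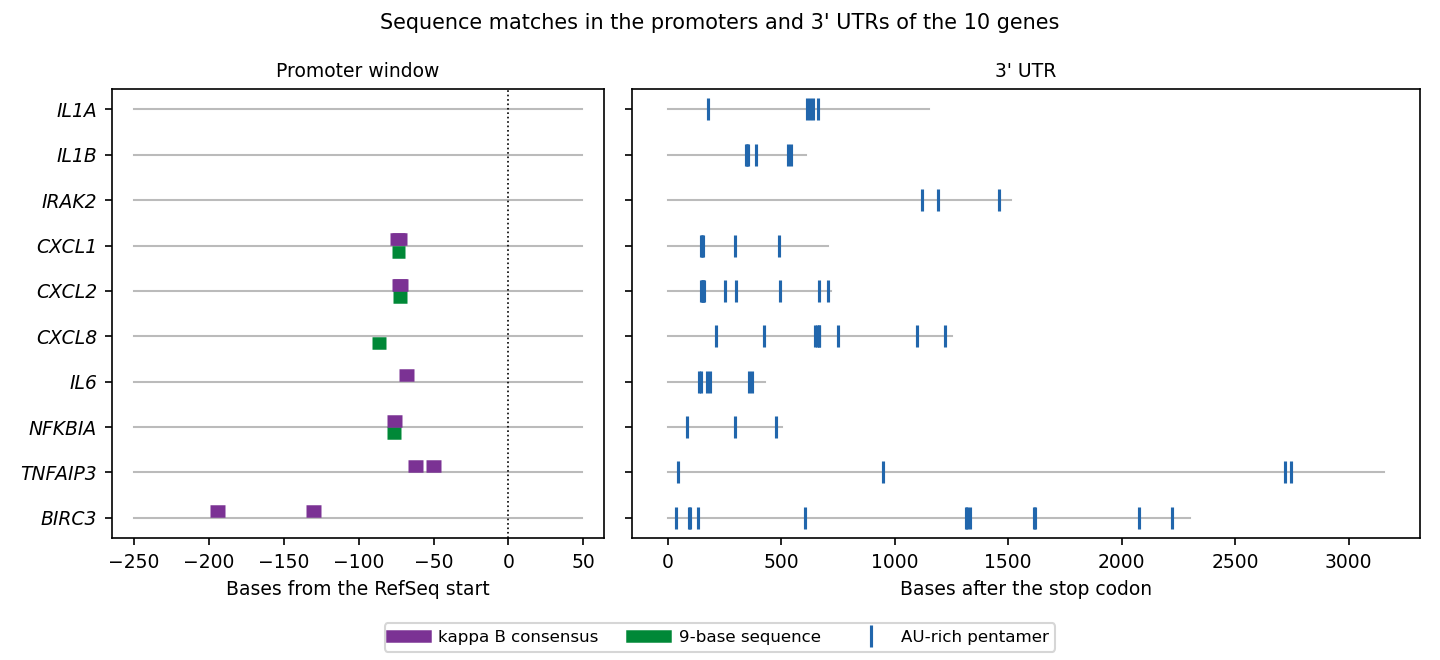
Left, positions in bases from the RefSeq start of kappa B consensus matches (purple) and of the 9-base sequence (green) in the promoter windows of the 10 genes. Right, positions in bases after the stop codon of the AU-rich pentamer (blue ticks) in the 3' UTRs, whose lengths are drawn as grey lines. All 10 genes hold the pentamer at least 3 times.

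Levels between genes were compared in TPM, which accounts for transcript length. NFKBIA was the most abundant of the 10 in every library, with 71.8 TPM in the SPRR1A siRNA, 75.5 TPM in the scrambled siRNA and 55.6 TPM in the untransfected library, and IL1B came next at 60.9, 48.1 and 50.3 TPM in that order. CXCL8 followed at 15.3, 19.2 and 16.3 TPM and TNFAIP3 at 12.9, 12.8 and 9.95 TPM. The order below them was BIRC3, IRAK2, CXCL2 and IL1A in both siRNA libraries, while in untransfected cells IRAK2 stood above BIRC3. Neighbours whose 95% counting intervals overlapped were IRAK2 and CXCL2 in the SPRR1A siRNA library, BIRC3 and IRAK2 in the scrambled siRNA library, and NFKBIA and IL1B, CXCL2 and IL1A, and IL1A and IL6 in the untransfected library. IL6 and CXCL1 stood at the bottom throughout.

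**Figure D2:**
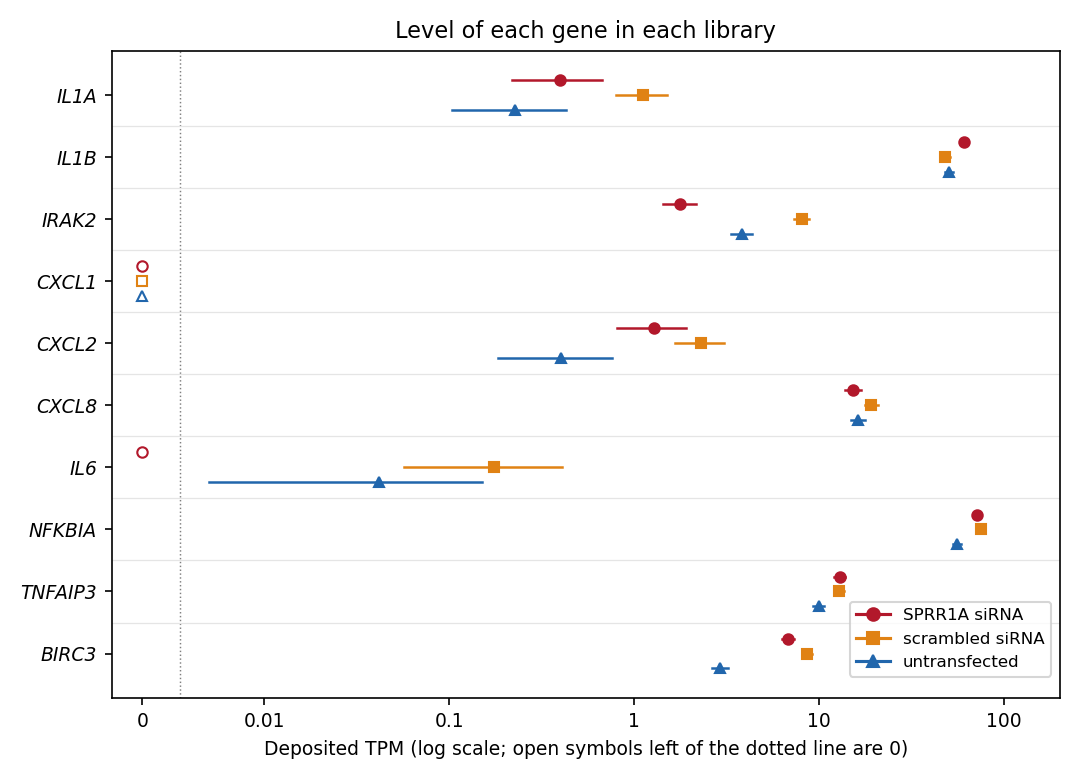
Deposited TPM on a log scale for each of the 10 genes in the SPRR1A siRNA (circles), scrambled siRNA (squares) and untransfected (triangles) library, with lines giving the 95% Poisson counting interval and open symbols a value of 0. NFKBIA and IL1B lie between 48.1 and 75.5 TPM in all libraries, and CXCL1 is at 0 in each.

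Ratios between libraries were taken on CPM, which is the count relative to a TMM-scaled library size. A gene was called when its log2 ratio, with a prior count of 2, lay at or beyond 1 in either direction and 1 was outside the 95% interval that counting error gives the plain ratio. Of the 10 genes, 8 reached 1 CPM in at least 1 library and could be called. IL1A and CXCL2 did so only in the scrambled siRNA library, at 1.10 and 1.21 CPM, so the filter itself picked them for being high there. Their calls in comparisons with that library are therefore partly set by the filter. Against the scrambled siRNA library, the SPRR1A siRNA library had 2 of the 8 genes lower (IL1A and IRAK2), where 7.26% of all 14233 kept genes were called lower, and none higher, where 3.7% were. Against the untransfected library it had 2 higher (CXCL2 and BIRC3), with 2.35% of kept genes called higher, and 1 lower (IRAK2), with 8.35% called lower. The scrambled siRNA library had 4 higher than the untransfected library (IL1A, IRAK2, CXCL2 and BIRC3), with 1.52% of kept genes called higher, and none lower, with 3.44% called lower. With a filter of 5 CPM, which removes IL1A and CXCL2, IRAK2 alone was lower against scrambled siRNA, where 586 of 11386 kept genes were. IRAK2 and BIRC3 were then higher between the controls, where 78 of 11386 kept genes were. IRAK2 was the 1 gene of the 10 lower than in both controls, which held for 4.64% of kept genes, and none of the 10 was higher than in both, which held for 1.03%. The comparisons share libraries, so that a high value in the scrambled siRNA library enters the first and the third with opposite signs.

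The median log2 ratio over all 10 genes, fitted values of CXCL1 and IL6 included, was -0.36 for SPRR1A siRNA over scrambled siRNA, 0.37 for SPRR1A siRNA over untransfected and 0.70 for scrambled siRNA over untransfected. The medians over all kept genes were -0.001, -0.003 and 0.005 in the same order. Leaving out IL1A and CXCL2, which the filter had picked, 6 of the 10 genes averaged at least 1 CPM over the libraries. Of these 6, 2 were highest in the SPRR1A siRNA, 4 in the scrambled siRNA and 0 in the untransfected library. Among all 13619 genes with such an average the shares were 39.5%, 30.7% and 29.8% in that order. For TNFAIP3 and NFKBIA the highest library was not resolved by counting. Their ratios of SPRR1A siRNA over scrambled siRNA were 1.01 (95% interval 0.920 to 1.10) and 0.943 (0.885 to 1.01).

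**Figure D3:**
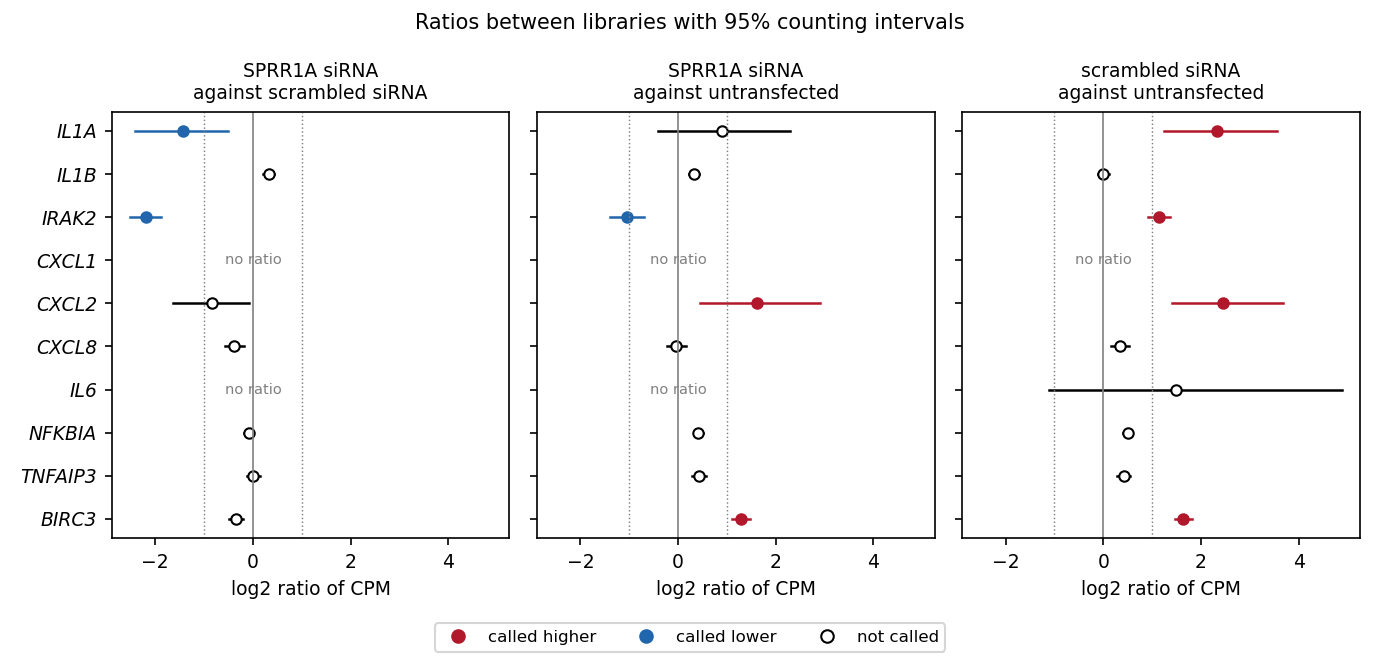
Log2 ratio of CPM, without a prior count, for each gene in the 3 comparisons, with lines giving the 95% counting interval and dotted lines a log2 ratio of 1 in size; filled red points were called higher, filled blue points lower and open points were not called. Right of 0 means higher in the library named first in the title. IL1A and IRAK2 lie left of the dotted line against scrambled siRNA. Between the controls the 4 genes called higher lie right of it, as does IL6, which was not called.

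Of the IL-1 ligands, IL1A was scarce and highest in the scrambled siRNA library, and IL1B was abundant and highest in the SPRR1A siRNA library. IL1A (NCBI Gene 3552, chromosome 2, 112773925 to 112784493 in GRCh38) encodes IL-1 alpha, which is active as a precursor and is released by damaged cells. It had 14 counts with SPRR1A siRNA, 40 with scrambled siRNA and 9 in untransfected cells, all of them low. IL1A was 2.68-fold lower in the SPRR1A siRNA than in the scrambled siRNA library (95% interval 1.43 to 5.34). It was 4.99-fold higher in the scrambled siRNA than in the untransfected library (2.38 to 11.7). Between the SPRR1A siRNA and the untransfected library the ratio was 1.86 with an interval of 0.750 to 4.87, so no difference was detectable at this depth.

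IL1B (Gene 3553, chromosome 2, 112829751 to 112836779), the neighbouring gene, encodes IL-1 beta, which needs cleavage, usually by caspase-1, to become active. It had 1456 counts with SPRR1A siRNA, 1237 with scrambled siRNA and 1392 in untransfected cells, or 42.7, 34.1 and 34.2 CPM. The SPRR1A siRNA library was the highest, by 1.25-fold over scrambled siRNA (1.16 to 1.35) and 1.25-fold over untransfected cells (1.16 to 1.35), short of the 2-fold rule. The scrambled siRNA and untransfected libraries had a ratio of 0.998 (0.923 to 1.08). Whether IL1A and IL1B differ in their response could not be tested with 1 library per group.

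IRAK2 (Gene 3656, chromosome 3, 10164919 to 10243745) encodes an IRAK family member that sustains signalling from IL-1 and Toll-like receptors to TRAF6. It had 97 counts with SPRR1A siRNA, 472 with scrambled siRNA and 240 in untransfected cells, which put the scrambled siRNA library highest and the SPRR1A siRNA library lowest. IRAK2 was 4.57-fold lower in the SPRR1A siRNA than in the scrambled siRNA library (3.66 to 5.74). It was also below untransfected cells, by 2.07-fold (1.63 to 2.65). The scrambled siRNA library was itself 2.21-fold above the untransfected library (1.89 to 2.59).

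The 3 neutrophil chemokines among the 10 genes ranged from 0 to 19.2 TPM. CXCL1 (Gene 2919, chromosome 4, 73869393 to 73871308) had 0 counts in all 3 libraries, where a floor of 3 counts corresponds to 0.088 CPM in the SPRR1A siRNA, 0.0826 CPM in the scrambled siRNA and 0.0736 CPM in the untransfected library, so no ratio can be given. CXCL2 (Gene 2920, chromosome 4, 74097040 to 74099195) had 23 counts with SPRR1A siRNA, 44 with scrambled siRNA and 9 in untransfected cells. Both siRNA libraries lay above the untransfected one, the scrambled siRNA library by 5.49-fold (2.64 to 12.8) and the SPRR1A siRNA library by 3.06-fold (1.36 to 7.51). Between the siRNA libraries CXCL2 was 1.80-fold lower in the SPRR1A siRNA library (1.06 to 3.12), which did not reach 2-fold.

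CXCL1, CXCL2 and their paralogue CXCL3 are hard to separate by short reads. Their coding sequences were 93.5% identical between CXCL1 and CXCL2, 90.7% between CXCL1 and CXCL3 and 94.4% between CXCL2 and CXCL3, and their transcripts shared unbroken runs of up to 77, 55 and 97 bases in that order. CXCL3 had 314, 540 and 306 counts in the SPRR1A siRNA, scrambled siRNA and untransfected library, so the counts of all 3 genes, the 0 of CXCL1 included, depend on how shared reads were assigned, which was not tested. CXCL8 is distinct from them, with at most 54.0% coding identity to any of the 3 and shared runs of 18 bases or fewer.

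CXCL8 (Gene 3576, chromosome 4, 73740569 to 73743716), the main human neutrophil attractant interleukin-8, had 401 counts with SPRR1A siRNA, 556 with scrambled siRNA and 493 in untransfected cells. In CPM the libraries had 11.8, 15.3 and 12.1 in that order, and no comparison was called. CXCL8 was 1.3-fold lower in the SPRR1A siRNA than in the scrambled siRNA library (1.14 to 1.48), and its ratio to the untransfected library was 0.973 (0.851 to 1.11). The scrambled siRNA library exceeded the untransfected one by 1.27-fold (1.12 to 1.43).

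IL6 (Gene 3569, chromosome 7, 22727200 to 22731998), the cytokine that drives acute-phase and bone-resorbing responses, was close to undetected. It had 0 counts with SPRR1A siRNA, 5 with scrambled siRNA and 2 in untransfected cells, below 1 CPM everywhere. Set against a floor of 3 counts, the scrambled siRNA library was 1.56-fold higher than the SPRR1A siRNA library, which is not a lower bound on the difference. The 95% counting intervals of both levels overlapped, reaching up to 0.108 CPM with SPRR1A siRNA and down to 0.0447 CPM with scrambled siRNA. The scrambled siRNA to untransfected ratio was 2.81 with a counting interval of 0.459 to 29.5. IL6 is overlapped by the noncoding IL6-AS1, which had 0 counts in every library.

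Of the 3 feedback genes, NFKBIA and TNFAIP3 were not called in any comparison and BIRC3 was called in both comparisons with untransfected cells. NFKBIA (Gene 4792, chromosome 14, 35401513 to 35404749) had 1777 counts with SPRR1A siRNA, 2007 with scrambled siRNA and 1592 in untransfected cells. Its ratio between the siRNA libraries was 0.943 (0.885 to 1.01), while both stood above untransfected cells, the SPRR1A siRNA library by 1.34-fold (1.25 to 1.43) and the scrambled siRNA library by 1.42-fold (1.32 to 1.51). TNFAIP3 (Gene 7128, chromosome 6, 137866349 to 137883312) had 956, 1012 and 850 counts in that order. It repeated the pattern, with a ratio of 1.01 between the siRNA libraries (0.920 to 1.10) and levels 1.35-fold (1.23 to 1.48) and 1.34-fold (1.22 to 1.47) above untransfected cells in the SPRR1A siRNA and the scrambled siRNA library. The start of TNFAIP3 overlaps the noncoding gene WAKMAR2, which had 11, 42 and 42 counts in the SPRR1A siRNA, scrambled siRNA and untransfected library. Counts of TNFAIP3 were at least 850 in each.

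BIRC3 (Gene 330, chromosome 11, 102317484 to 102339403) encodes cIAP2, a ubiquitin ligase that protects cells from death after TNF receptor signalling. It had 738 counts with SPRR1A siRNA, 1002 with scrambled siRNA and 362 in untransfected cells. Both siRNA libraries stood well above the untransfected cells, by 2.44-fold in the SPRR1A siRNA library (2.15 to 2.77) and 3.11-fold in the scrambled siRNA library (2.75 to 3.51). Between the siRNA libraries BIRC3 was 1.27-fold lower with SPRR1A siRNA (1.16 to 1.40), which was not called. BIRC3 and CXCL2 were called higher in both siRNA libraries than in untransfected cells. Of all kept genes, 2.35% were called higher in this way with SPRR1A siRNA and 1.52% with scrambled siRNA, and the share called in both was not counted. Both comparisons share the untransfected library, and CXCL2 reached 1 CPM only in the scrambled siRNA library.

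The surrounding pathway was described with 9 lists of ligands, receptors, kinases, NF-kB proteins, inhibitors and targets holding 100 further genes, of which 66 reached 1 CPM. Against the scrambled siRNA library the SPRR1A siRNA library had 1 of the 66 higher (1.52%, where 3.7% of all kept genes were called higher) and 7 lower (10.6%, where 7.26% were called lower), with a median log2 ratio of -0.33. Against the untransfected library it had 1 higher (1.52% against 2.35% of kept genes) and 2 lower (3.03% against 8.35%), with a median of -0.17. Between scrambled siRNA and untransfected cells 2 were higher (3.03% against 1.52%) and 2 lower (3.03% against 3.44%), with a median of 0.14. The medians over all kept genes were near 0 in each comparison, as given above.

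Of 9 IL-1 family ligands, 4 reached 1 CPM. Between the siRNA libraries 2 of the 4, IL1A and IL18, were called lower and 0 higher, where 7.26% and 3.7% of kept genes were. Between the controls 1 was called higher and 1 lower, where 1.52% and 3.44% of kept genes were. IL18, an IL-1 family cytokine that induces interferon gamma, had 36 counts with SPRR1A siRNA, 81 with scrambled siRNA and 82 in untransfected cells. It was 2.11-fold lower with SPRR1A siRNA than with scrambled siRNA (1.41 to 3.22). IL37, an IL-1 family member that damps inflammation, had 114 counts in the scrambled siRNA and 294 in the untransfected library and was 2.30-fold lower in scrambled siRNA (1.84 to 2.88). The signalling receptor IL1R1 was low, at 1.58 TPM in the SPRR1A siRNA, 2.0 TPM in the scrambled siRNA and 2.15 TPM in the untransfected library. It was 1.29-fold lower with SPRR1A siRNA than with scrambled siRNA (1.02 to 1.63) and 1.32-fold lower than in untransfected cells (1.06 to 1.66), short of the 2-fold rule. Its partner IL1RAP had 393, 581 and 249 counts in that order and was 2.62-fold higher in the scrambled siRNA than in the untransfected library (2.25 to 3.05). All 7 receptors and antagonists at or above 1 CPM had log2 ratios below 0 between SPRR1A siRNA and scrambled siRNA, with a median of -0.36, where 7125 of the 14233 kept genes were below 0, and none was called. The counting intervals of IL1RN (0.723 to 1.27) and SIGIRR (0.618 to 1.01) held 1, so their direction was not resolved. Of the same 7, 5 were below 0 between SPRR1A siRNA and untransfected cells and 5 between scrambled siRNA and untransfected cells.

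Below the receptor, IRAK2 was joined by IRAK1, the kinase that links MYD88 to TRAF6. IRAK1 was far more abundant than IRAK2, at 99.7 TPM in the SPRR1A siRNA, 210.4 TPM in the scrambled siRNA and 163.5 TPM in the untransfected library, and was 2.13-fold lower with SPRR1A siRNA than with scrambled siRNA (2.06 to 2.19). The first kinase of the chain, IRAK4, had a log2 ratio of -0.82 to each control and was not called. The adaptor MYD88 (0.53 and 0.13) and the ubiquitin ligase TRAF6 (-0.14 and -0.02) had small log2 ratios of SPRR1A siRNA over scrambled siRNA and over untransfected cells. Of 14 adaptors and kinases at or above 1 CPM, IRAK1 and IRAK2 were the only ones called lower against scrambled siRNA and none was called higher, where 7.26% of kept genes were called lower and 3.7% higher, and the list median was 0.04.

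The IKK, NF-kB and IkB genes were all at or above 1 CPM, and none of the 14 was called between the siRNA libraries, where 7.26% of kept genes were called lower and 3.7% higher. The main activating subunit RELA had 99.1 TPM in the SPRR1A siRNA, 87.7 TPM in the scrambled siRNA and 87.1 TPM in the untransfected library. NFKB1, whose product p50 pairs with RELA, had 27.9, 36.7 and 32.3 TPM in that order. RELB, a subunit of the alternative NF-kB pathway, had 408 counts in the SPRR1A siRNA and 237 in the untransfected library and was 2.06-fold higher with SPRR1A siRNA (1.75 to 2.43). Between scrambled siRNA and untransfected cells 13 of the 14 had log2 ratios above 0, with a median of 0.36, against 50.6% of all kept genes above 0. Of these 13, BCL3 (0.963 to 1.10) and NFKBIZ (0.874 to 1.22) had counting intervals that held 1. The ratios closest to 2-fold were those of RELB (0.97), NFKB2 (0.96) and the kinase gene MAP3K14 (0.93), all of the alternative pathway and chosen after their values were seen, and none was called.

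All 11 feedback inhibitors reached 1 CPM. Between the siRNA libraries 2 of them were called lower and 0 higher, where 7.26% and 3.7% of kept genes were. Their median log2 ratio was -0.13, and 4 of the 11 were above 0. Among them, TNIP1, a partner of A20, had 1127 counts with SPRR1A siRNA, 3178 with scrambled siRNA and 2940 in untransfected cells. It was 2.65-fold (2.47 to 2.84) and 2.18-fold (2.04 to 2.34) lower with SPRR1A siRNA than in the scrambled siRNA and untransfected library. TRAF1, an NF-kB-induced adaptor that works with cIAP2, had 43, 130 and 64 counts in that order. It was 2.84-fold lower with SPRR1A siRNA than with scrambled siRNA (2.0 to 4.10) and 2.28-fold higher in scrambled siRNA than in untransfected cells (1.68 to 3.13).

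Of 22 wider NF-kB targets, IL6 included, 7 reached 1 CPM, where 30.7% of all 46427 genes did, and 4 were at 0 in every library (CCL5, CXCL10, NOD2 and TLR2). Of the 7, 1 was called higher and 1 lower between the siRNA libraries, where 3.7% and 7.26% of kept genes were. IL11, a gp130 cytokine, had 88 counts with SPRR1A siRNA, 42 with scrambled siRNA and 121 in untransfected cells, so it was 2.23-fold higher with SPRR1A siRNA than with scrambled siRNA (1.53 to 3.31) and 2.57-fold lower in scrambled siRNA than in untransfected cells (1.79 to 3.74), the reverse of IL1A and IRAK2. PLAU, the urokinase gene, was 2.13-fold lower with SPRR1A siRNA than with scrambled siRNA (2.02 to 2.25). Of the other neutrophil chemokines and their receptors, CXCL5, CXCL6, PPBP and CXCR2 were at 0 throughout, and CXCL3 (-0.69) was not called between the siRNA libraries.

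**Figure D4:**
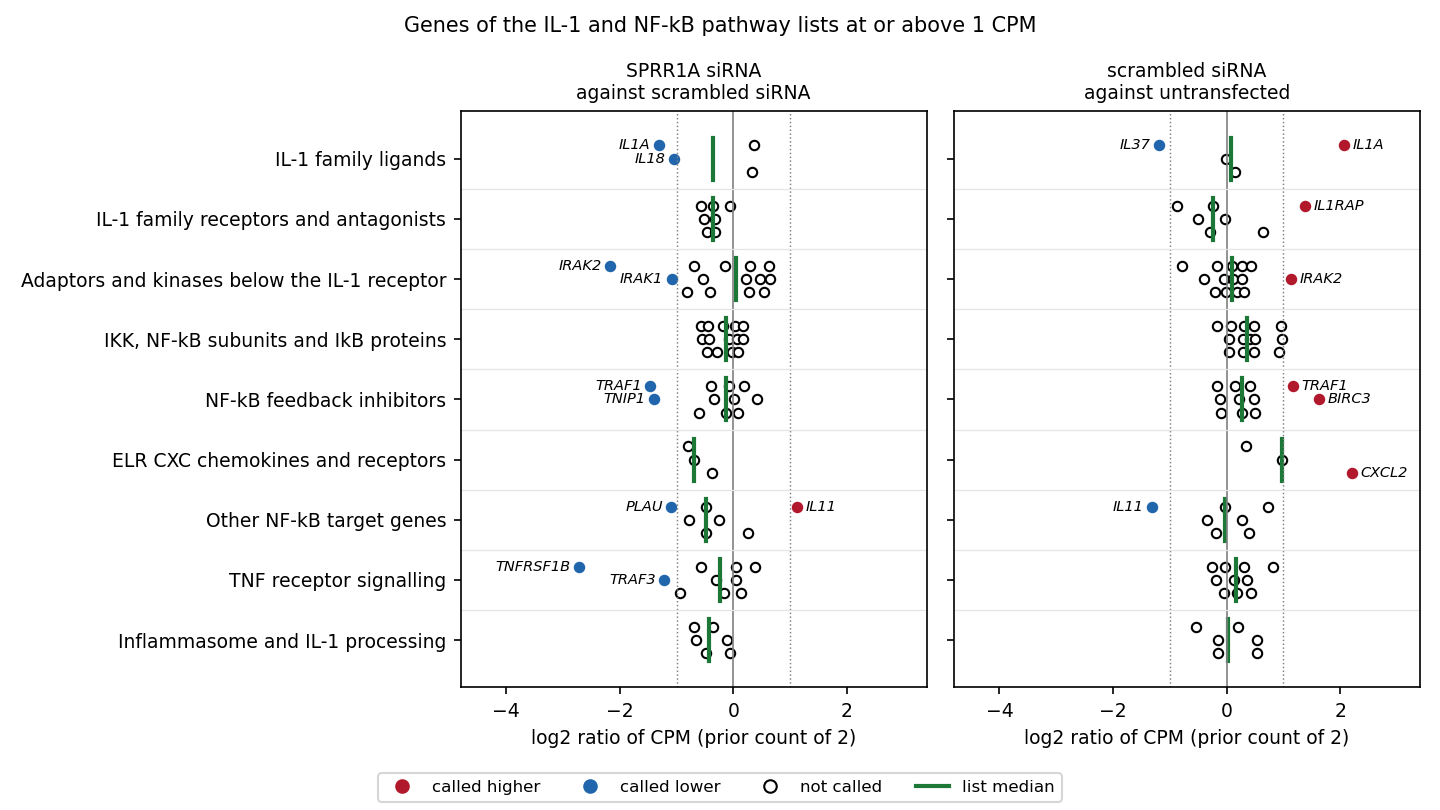
Log2 ratio of CPM (prior count of 2) for genes at or above 1 CPM in the 9 pathway lists, for SPRR1A siRNA over scrambled siRNA (left) and scrambled siRNA over untransfected (right); filled points were called and are named, open points were not, green bars are list medians and dotted lines mark a log2 ratio of 1 in size. A gene in several lists is drawn in each. On the right, 13 of the 14 IKK, NF-kB and IkB genes lie above 0.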

How the data were processed

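Stranded mRNA libraries were sequenced from 3 groups of MG-OKS cells with 1 library each. Groups were assigned by the title for untransfected cells and by the genotype label for either siRNA, and table columns by title. The authors deposited whole-number read counts per gene, with FPKM and TPM for the same genes. Alignment used HISAT2 version 2.1.0 and the builds GRCh38 and hg38 were named, per the submitters' processing notes; the counting tool, annotation release and strand setting are not given in the sources used here. The deposited TPM summed to between 999131 and 999391, and the deposited FPKM served only to check that each column was of the same order. No column was left unassigned.

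From the counts, genes reaching 1 CPM in at least 1 library were kept (14233 of 46427, 30.7%), and TMM factors (0.989, 0.994 and 1.02 for SPRR1A siRNA, scrambled siRNA and untransfected) were computed with edgeR 4.0.16 in R 4.3.3. Log2 ratios carry a prior count of 2, while folds are plain ratios of CPM. Levels have exact Poisson and ratios exact conditional binomial 95% intervals, which cover counting error only, since reads carried no molecular identifiers. A call needed 2-fold and an interval excluding 1. The procedure was run on simulated counts with Poisson error only, with changes larger than 2-fold planted in genes of at least 5 CPM. That run says nothing of variation between libraries, of ratios close to 2-fold, or of genes as scarce as IL1A and CXCL2. Alternatives were DESeq2 1.42.0 size factors, library totals, log2(TPM + 1), no filter, a filter of 5 CPM, a 1.5-fold threshold and a prior count of 0.5. Motifs were searched with Python 3.11.15 in RefSeq promoters and GENCODE transcripts. Named genes were the 10 members, pathway genes called in at least 1 comparison, fixed defining genes of each step, and the 3 nearest patterns to IL1A, CXCL8 and IRAK2. Genes outside this rule, among them CXCL3, NFKB2, MAP3K14, CASP1 and those at 0 throughout, were also named for description. The members and lists were chosen with earlier results of these data known.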

Additional observations from a re-analysis of the deposited data

How the results depend on the processing

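With 1 library per group, neither leaving out a replicate nor a test was possible. No paired analysis was possible because each group has a single library and the labels carry no replicate numbers. No ratio of a single gene changed sign once called, and scaling by DESeq2 size factors or library totals and the prior count of 0.5 changed no count of called members by over 1.5 times. On log2(TPM + 1) the members called were 1 lower for SPRR1A siRNA against scrambled siRNA (IRAK2), 0 higher and 0 lower for SPRR1A siRNA against untransfected, where the median was 0.23, and 2 higher for scrambled siRNA against untransfected (CXCL2 and BIRC3); adding 1 to low TPM shrinks ratios by construction. A filter of 5 CPM removes IL1A and CXCL2. It left 1 lower (IRAK2) for SPRR1A siRNA against scrambled siRNA, and 1 higher (BIRC3) and 1 lower (IRAK2) against untransfected. Between the controls 2 were higher (IRAK2 and BIRC3). With a 1.5-fold threshold, 3 were lower for SPRR1A siRNA against scrambled siRNA (IL1A, IRAK2 and CXCL2). Of 162 alternative values for single members, 152 kept their call or stayed within the counting interval and 10 lost the call. Over all genes, calls across the alternatives ranged from 289 to 1610 higher and 523 to 2253 lower for SPRR1A siRNA against scrambled siRNA (527 and 1034 as reported), from 155 to 1261 and 678 to 2577 against untransfected (335 and 1188), and from 70 to 870 and 228 to 1381 between the controls (217 and 489). Depth limits IL1A, CXCL2 and IL6 most.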

Other observations

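In the TNF receptor list, which shares the IKK step with IL-1, 2 of 10 genes were lower with SPRR1A siRNA than with scrambled siRNA and none was higher, where 7.26% of kept genes were called lower and 3.7% higher. TNFRSF1B, the second TNF receptor, had 156 counts with SPRR1A siRNA, 1112 with scrambled siRNA and 712 in untransfected cells, and was 6.69-fold (5.65 to 7.96) and 3.82-fold (3.20 to 4.57) lower than in the scrambled siRNA and untransfected library. TRAF3, a brake on the alternative NF-kB pathway, had 741 counts in the SPRR1A siRNA and 1834 in the scrambled siRNA library and was 2.32-fold lower (2.13 to 2.53). The widely expressed receptor TNFRSF1A, chosen after its values were seen, had 295.1, 284.3 and 352.5 TPM in the SPRR1A siRNA, scrambled siRNA and untransfected library.

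Of 11 genes of the inflammasome and of IL-1 processing, 6 reached 1 CPM and none was called in any comparison, where between 1.52% and 8.35% of kept genes were called in a given direction. CASP1, which cleaves IL-1 beta, had 2.33, 3.51 and 3.23 TPM in the SPRR1A siRNA, scrambled siRNA and untransfected library, and its adaptor gene PYCARD had 0 counts in each; both were chosen after their values were seen. NLRP3, the inflammasome sensor, also chosen after its values were seen, had 12 counts in the SPRR1A siRNA library and 0 in the others, below 1 CPM throughout.

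Patterns most like those of 3 members were sought among 9654 genes averaging at least 10 CPM, by the Euclidean distance between pairs of log2 ratios over the 3 libraries. NAV3 was nearest to IRAK2, at a distance of 0.03, with 446, 2192 and 1123 counts in the SPRR1A siRNA, scrambled siRNA and untransfected library, followed by KLHDC3 and TGFBR3. The genes nearest to IL1A were farther off, the readthrough gene ANKHD1-EIF4EBP3 at 0.51, then DDAH1 and TRIM16L at 0.75 each. With 14, 40 and 9 counts the ratios of IL1A itself are uncertain, and genes as scarce as IL1A were not eligible. RPP21, HBEGF and CCNA2 were nearest to CXCL8, within 0.011, but 159 genes lay within 0.1 of it.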
